A study of Mus musculus with 24 samples.

Results

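Of the 55401 genes in the count table, 10 carry, move or store iron or set how much of it leaves the cell, and all 10 were described here. They were chosen by symbol: Trf, Tfrc, Hamp, Slc40a1, Slc11a2, Fth1, Ftl1, Cp, Hfe and Steap3, 1 row each. The choice was made to compare their levels between tissues and between ages, so both of those contrasts are given as descriptions of the members, with counts of calls beside the share of all genes and no p-value per member. The contrast of the sexes is not named in that rule, and its p-values are given. Kidney, left ventricle and skeletal muscle of 8 mice of the inbred strain C57BL6/J gave total RNA that was sequenced after removal of ribosomal RNA, with no treatment or allele in the labels. The 86-week group held females 11 and 12 and males 14 and 17, and the 16.5-week group held females 14 and 15 and males 19 and 20, so that each tissue has 4 libraries per age, 4 per sex and 2 per age and sex. Each of the 24 libraries is a tissue of 1 mouse, and the same mouse names recur in all 3 tissues. Neither the muscle nor the region of the kidney is named in the labels.

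Iron travels in plasma bound to transferrin (Trf), which docks on the transferrin receptor (Tfrc) and is taken into endosomes. There Steap3, a ferrireductase, reduces the metal and Slc11a2, the divalent metal transporter DMT1, passes it to the cytosol. Iron that is not used is caged in ferritin, a shell of heavy (Fth1) and light (Ftl1) chains, or leaves through ferroportin (Slc40a1), the exporter, with the help of the copper ferroxidase ceruloplasmin (Cp). Hepcidin (Hamp), a liver hormone, removes ferroportin from the surface, and Hfe, a protein of the MHC class I type that binds the transferrin receptor, takes part in the signal that sets hepcidin. In kidney the proximal tubule recovers filtered transferrin, and heart and muscle take up iron for heme, myoglobin and iron-sulfur proteins.

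Part of this circuit is read through a hairpin in the mRNA, the iron-responsive element, to which the iron regulatory proteins Aco1 and Ireb2 bind when iron is scarce. Binding in a 5′ UTR blocks translation and binding in a 3′ UTR protects the mRNA, so that for the genes below a transcript level alone does not give the protein. The hairpins are shown because they lie in the 5′ UTR of some members, whereas the receptor carries repeats of the element in its 3′ UTR. A search of the sense strand of GENCODE M21 protein-coding transcripts (build GRCm38) for the loop CAGTGN, flanked on either side by 5 bases that pair with each other (G with T counted as a pair) and preceded by an unpaired C before the stem, found it in 4 members. Across all protein-coding genes 294 of 21901 (1.34%) held it in at least 1 transcript. A match is a description of the sequence, not a tested site. Elements of another shape are missed by this search, so a member without a match is not shown to lack one. Slc11a2 had a stem loop of this kind in its coding sequence, but with G in place of the unpaired C, and it was not counted. Capitals mark the loop, sequences are written as DNA from 5′ to 3′ in the sense of the mRNA, and each is 30 bases long.
Fth1, 5′ UTR, chr19:9982731-9982760, plus strand: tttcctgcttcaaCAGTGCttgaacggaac
Ftl1, 5′ UTR, chr7:45459779-45459808, minus strand: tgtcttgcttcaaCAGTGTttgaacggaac
Slc40a1, 5′ UTR, chr1:45925465-45925494, minus strand: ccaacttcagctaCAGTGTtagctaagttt
Tfrc, 3′ UTR, chr16:32631218-32631247, plus strand: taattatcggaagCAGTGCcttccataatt
Tfrc, 3′ UTR, chr16:32631597-32631626, plus strand: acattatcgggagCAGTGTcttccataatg
Tfrc, 3′ UTR, chr16:32631662-32631691, plus strand: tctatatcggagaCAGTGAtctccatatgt
Tfrc, 3′ UTR, chr16:32631709-32631738, plus strand: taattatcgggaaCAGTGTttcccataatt
The ferritin pair shares the stem next to the loop, and Tfrc holds 4 such hairpins within a short stretch of its 3′ UTR.

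Levels are given as CPM, that is, counts scaled to library size after TMM normalisation over all 24 libraries, and where genes are compared with each other as CPM per kilobase of exon. Positions are those of GENCODE M21 on GRCm38. Libraries held 52602585 to 103797551 counts. Outside Hamp, a member had between 317 counts (Cp in 1 muscle library) and 145129 counts (Fth1 in 1 kidney library). For the labelled tissues, summed proximal tubule markers ran from 9117 to 15310 CPM in kidney, cardiomyocyte markers from 47999 to 68502 CPM in left ventricle, and fast muscle markers from 129591 to 199539 CPM in skeletal muscle. Muscle of 86-week male 17 stood apart, with the lowest fast muscle sum (129591 CPM, against at least 165097 CPM in the other 7). Kidney of 16.5-week female 15 had an adipocyte marker sum of 238 CPM, against at most 65.6 CPM in the other kidneys, and kidney of 86-week female 12 a macrophage sum of 224 CPM, against at most 118 CPM. Kidney of 86-week female 11 had the lowest proximal tubule sum, 9117 CPM against at least 12178 CPM in the other kidneys. It also had the highest TMM factor (1.511) and the lowest Fth1 of the kidneys (906 CPM).

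Ferritin heavy chain message was the most abundant of the set in each tissue, and kidney held more of both chains than heart or skeletal muscle. In tissue RNA fewer cells of a type and less RNA per cell cannot be told apart, here and in each comparison that follows. Per kilobase, Fth1 stood at 403 ± 82.0 CPM in kidney, 169 ± 19.1 in left ventricle and 186 ± 27.9 in skeletal muscle, and Ftl1 at 269 ± 35.7, 38.3 ± 7.99 and 23.0 ± 5.02 CPM in the same tissues (mean ± SD, n = 8 each). In kidney the other members followed far below, with Tfrc at 11.9 ± 2.71, Trf at 11.8 ± 8.46, Slc11a2 at 8.72 ± 1.35, Cp at 5.76 ± 2.07, Slc40a1 at 5.30 ± 1.6, Hfe at 2.98 ± 0.328 and Steap3 at 1.66 ± 0.865 CPM per kilobase. Of these, the means of Tfrc, Slc11a2, Cp and Slc40a1 all lay within the spread of Trf. The spread of Slc11a2 overlapped those of Tfrc and Cp, and Cp and Slc40a1 lay within each other's spread, so these genes are not ranked. In skeletal muscle Ftl1, Tfrc at 18.3 ± 4.98 and Trf at 13 ± 8.86 CPM per kilobase lay within each other's spread. Tfrc exceeded Ftl1 in muscle of 16.5-week female 14 (23.9 against 19.2 CPM per kilobase), and Trf exceeded it in 86-week female 12 (26.3 against 24.3).

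**Figure D1:**
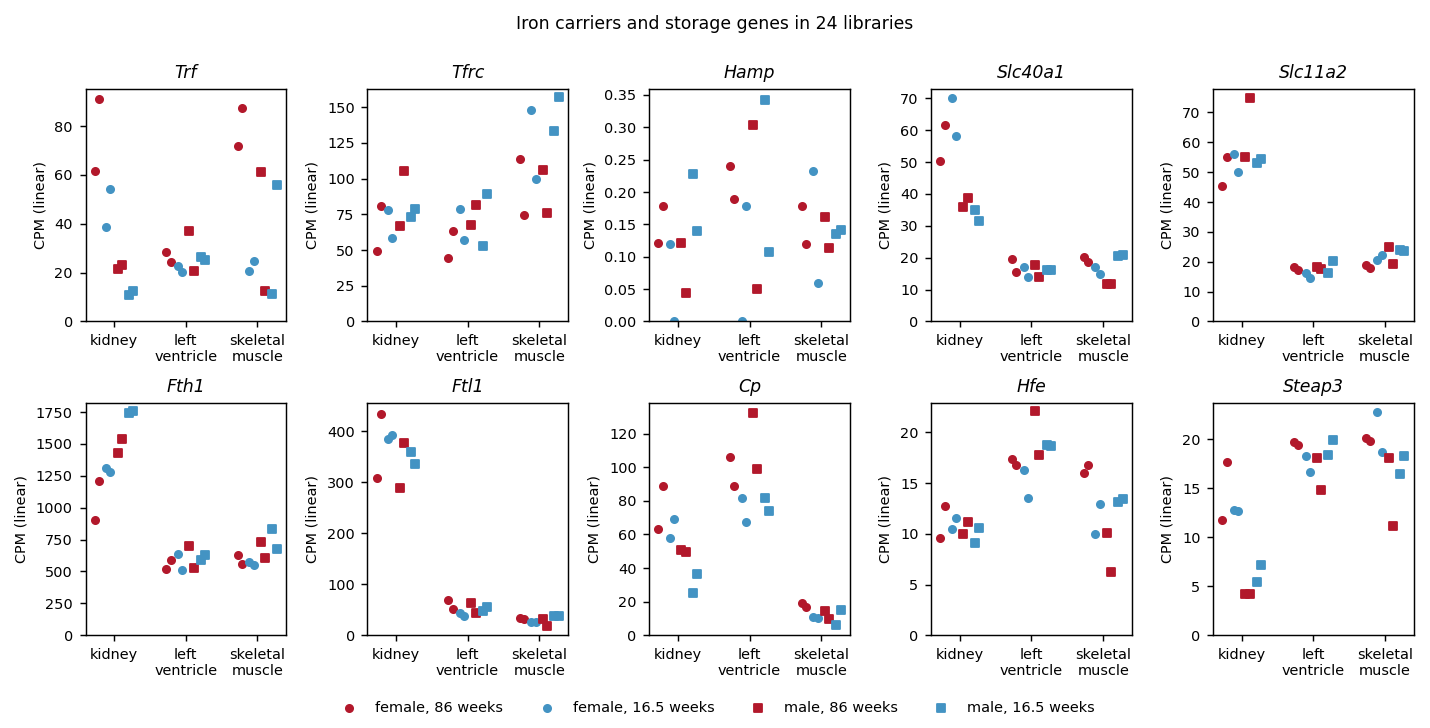
Level of each of the 10 genes in 24 libraries, as CPM on a linear axis from 0 (vertical), by tissue (horizontal). Each point is 1 mouse, circles are females, squares males, red 86 weeks and blue 16.5 weeks. Ftl1, Fth1, Slc11a2 and Slc40a1 are highest in kidney, Cp and Hfe in left ventricle, and Hamp stays below 0.35 CPM.

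The ferritin chains differed in how strongly they marked the kidney. Ftl1 (ENSMUSG00000050708.16, chr7:45457944-45459884, minus strand) had 289 to 435 CPM in kidney (median 369), 38.0 to 68.7 CPM in left ventricle (median 49.9) and 18.4 to 38.2 CPM in skeletal muscle (median 32.4). Kidney therefore lay above both other tissues in each library, by 2.82 ± 0.13 log2 units over left ventricle and 3.57 ± 0.13 over skeletal muscle (edgeR estimate ± SE). Fth1 (ENSMUSG00000024661.7, chr19:9980598-9985098, plus strand) had 906 to 1759 CPM in kidney (median 1372), 511 to 696 CPM in left ventricle (median 592) and 554 to 830 CPM in skeletal muscle (median 617). Its kidney levels also lay above all others, but by less, 1.23 ± 0.10 log2 units over left ventricle and 1.10 ± 0.10 over skeletal muscle. Per kilobase, the ratio of heavy to light chain message was accordingly lowest in kidney, 1.07 to 2.02, against 2.91 to 5.78 in left ventricle and 6.64 to 12.67 in skeletal muscle. Rows named as ferritin pseudogenes took at most 0.229% of the heavy chain counts and 3.13 to 6.06% of the light chain counts, and reads shared with such copies may have been split between them.

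The exporter and the metal transporter were highest in kidney as well, and present in both other tissues. Slc40a1 (ferroportin, ENSMUSG00000025993.10, chr1:45908068-45926523, minus strand) had 31.4 to 70.0 CPM in kidney (median 44.6), 14.1 to 19.7 CPM in left ventricle (median 16.1) and 11.6 to 21.0 CPM in skeletal muscle (median 17.8). The lowest kidney was above the highest library of either other tissue, and the differences were 1.5 ± 0.09 and 1.47 ± 0.09 log2 units. Slc11a2 (ENSMUSG00000023030.16, chr15:100387898-100425072, minus strand) had 45.2 to 74.8 CPM in kidney (median 54.7), 14.6 to 20.1 CPM in left ventricle (median 17.3) and 18.0 to 25.1 CPM in skeletal muscle (median 21.4). It too lay apart in kidney, by 1.68 ± 0.09 and 1.37 ± 0.09 log2 units, while left ventricle and skeletal muscle overlapped, with a difference of -0.31 ± 0.09. Gm5475, which lies across from Slc11a2 on the other strand, reached 1.98 ± 0.234 CPM in kidney, far below it.

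Ceruloplasmin followed another order. Cp (ENSMUSG00000003617.16, chr3:19957054-20009145, plus strand) had 24.9 to 89.1 CPM in kidney (median 54.5), 67.6 to 132 CPM in left ventricle (median 85.6) and 6.11 to 19.2 CPM in skeletal muscle (median 12.6). Left ventricle exceeded skeletal muscle by 2.85 ± 0.15 log2 units, and kidney exceeded skeletal muscle by 2.06 ± 0.15, without overlap in either case. Kidney and left ventricle overlapped, and the kidney mean was lower (-0.79 ± 0.14). Exons of Cp overlap those of Hps3 on the opposite strand, and without a stated strand setting reads of the pair cannot be told apart. Hps3 had 36.3 ± 6.19 CPM in kidney, 11.9 ± 1.02 in left ventricle and 8.54 ± 1.35 in skeletal muscle (SD, n = 8), which is a different order from that of Cp.

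The receptor side was spread more evenly. Tfrc (ENSMUSG00000022797.16, chr16:32608920-32632794, plus strand) had 49.6 to 105 CPM in kidney (median 75.4), 44.2 to 88.9 CPM in left ventricle (median 65.4) and 74.8 to 157 CPM in skeletal muscle (median 110). All 3 ranges overlapped, with skeletal muscle highest on average, and kidney over skeletal muscle was -0.60 ± 0.15 and left ventricle over skeletal muscle -0.75 ± 0.15 log2 units. Trf (ENSMUSG00000032554.15, chr9:103204001-103230444, minus strand) had 10.7 to 91.1 CPM in kidney (median 30.8), 20.4 to 37.1 CPM in left ventricle (median 24.8) and 11.2 to 87.3 CPM in skeletal muscle (median 40.3). The tissues overlapped throughout, and the spread within kidney and within muscle was larger than the difference between them (-0.32 ± 0.26). Exons of Trf overlap those of Gm20425 on the same strand, a gene that was not analysed here, and shared reads may have been split. Steap3 (ENSMUSG00000026389.16, chr1:120190757-120272705, minus strand), the endosomal reductase, had 4.19 to 17.7 CPM in kidney (median 9.5), 14.8 to 19.9 CPM in left ventricle (median 18.3) and 11.2 to 22.8 CPM in skeletal muscle (median 18.5). Kidney was the low tissue (-1.11 ± 0.11 log2 units against left ventricle and -1.10 ± 0.11 against skeletal muscle), with overlap. The gap was wider in males, whose kidneys had 5.26 ± 1.4 CPM, against 17.8 ± 2.14 in left ventricle and 16 ± 3.33 in muscle. Female values were 13.8 ± 2.64, 18.5 ± 1.36 and 20.4 ± 1.74 CPM in the same order (SD, n = 4 each). Hfe (ENSMUSG00000006611.15, chr13:23702034-23710854, minus strand) had 9.05 to 12.7 CPM in kidney (median 10.6), below all left ventricles at 13.5 to 22.1 CPM (median 17.6), and 6.22 to 16.8 CPM in skeletal muscle (median 13). The kidney difference from left ventricle was -0.72 ± 0.10 log2 units.

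Hamp (ENSMUSG00000050440.8, chr7:30942368-30944032, minus strand), the hormone gene, was near the floor of the data in all 3 tissues. It had 0 to 19 counts per kidney library, 0 to 26 per left ventricle library and 4 to 16 per muscle library. Per kilobase, its means were 0.290, 0.430 and 0.347 CPM in kidney, left ventricle and skeletal muscle. The 95th percentile of 1111 olfactory receptor genes, taken as a background, was 0.244, 0.289 and 0.337 CPM per kilobase in the same tissues. Levels that close to such genes carry no fold change here, although Hamp passed the filter on low counts. The near-identical copy Hamp2 stood at 0.303, 0.427 and 0.473 CPM per kilobase in the same tissues.

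By edgeR's quasi-likelihood test with Benjamini-Hochberg adjustment over all genes kept, at 0.05, 7 of 10 members passed between kidney and left ventricle (4 higher, 3 lower), beside 33.3% of all genes. Between kidney and skeletal muscle 7 passed (5 higher, 2 lower), beside 42.7%, and between left ventricle and skeletal muscle 5 passed (3 higher, 2 lower), beside 26.3%. Without overlap between the 8 libraries of each, 5 members separated kidney from left ventricle (4 higher, Hfe lower), beside 43.1% of genes with a mean of at least 1 CPM. Likewise 5 separated kidney from skeletal muscle (all higher), beside 46.5%, and Cp separated left ventricle from skeletal muscle, beside 31.6%. Because the members were picked to compare these tissues, nothing is read from those counts. The members' median log2 difference was 0.21 for kidney over left ventricle, 0.47 for kidney over skeletal muscle and -0.01 for left ventricle over skeletal muscle. The median log2 difference over all genes was -0.09, -0.23 and -0.12 in the same comparisons.

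Sex separated 5 of the 10 genes in kidney. Female kidneys had 3.73-fold more Trf, 2.69-fold more Steap3, 1.79-fold more Cp and 1.73-fold more Slc40a1 than male kidneys, while Fth1 was lower in females, at 0.737 of the male level. These 5 were the members that passed (4 higher, 1 lower, 5 of 10), beside 7.58% of all genes tested in kidney (3.81% higher and 3.77% lower in females). They were also the members whose 4 female and 4 male libraries did not overlap, which held for 16% of genes with a mean of at least 1 CPM. The 16% is over 18862 genes, whereas the 7.58% is over 44572 genes tested, many of them at lower counts. The median change over all 10 members was 0.17 log2 units, and over all genes 0.02.

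Trf, the carrier, had 61.7 and 91.1 CPM in 86-week and 38.5 and 54.1 CPM in 16.5-week female kidneys, against 21.5 and 23.1 CPM in 86-week and 10.7 and 12.6 CPM in 16.5-week male kidneys. The lowest female was above the highest male, and within each sex the 86-week mice were higher. The female over male change was 1.90 ± 0.13 log2 units (SE, edgeR adjusted p = 2.24e-07, Benjamini-Hochberg), and 1.78 to 2.01 when each mouse was left out in turn. Steap3 had 11.8 and 17.7 CPM in 86-week and 12.8 and 12.7 CPM in 16.5-week females, against 4.22 and 4.19 CPM in 86-week and 5.48 and 7.16 CPM in 16.5-week males. The sexes lay apart at both ages, with a change of 1.43 ± 0.17 log2 units (edgeR adjusted p = 6.1e-05). Messages for the carrier and for the endosomal reductase were thus both higher in the female kidney, whereas the receptor was not called: Tfrc had 66.7 ± 15.1 CPM in females and 80.9 ± 17.1 CPM in males (SD, n = 4 each), with overlap and a change of -0.25 ± 0.15 (edgeR adjusted p = 0.455).

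Export genes moved in the same direction as the carrier. Slc40a1 had 50.3 and 61.6 CPM in 86-week and 70.0 and 58.3 CPM in 16.5-week female kidneys, against 35.9 and 38.9 CPM in 86-week and 35.0 and 31.4 CPM in 16.5-week male kidneys. All females exceeded all males, by 0.79 ± 0.10 log2 units (edgeR adjusted p = 0.000165). Cp had 63.0 and 89.1 CPM in 86-week and 57.9 and 69.2 CPM in 16.5-week females, against 51.0 and 49.6 CPM in 86-week and 24.9 and 36.5 CPM in 16.5-week males. The groups did not overlap, though the gap between the lowest female and the highest male was small, and the change was 0.84 ± 0.14 (edgeR adjusted p = 0.00114). Hps3, which shares exon sequence with Cp on the other strand, had 31.9 ± 4.62 CPM in females and 40.8 ± 3.89 CPM in males (SD, n = 4 each), the opposite order, with overlap.

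Storage split by chain. Fth1 had 906 and 1211 CPM in 86-week and 1315 and 1279 CPM in 16.5-week female kidneys, against 1429 and 1541 CPM in 86-week and 1739 and 1759 CPM in 16.5-week male kidneys. The highest female was just under the lowest male, and the change was -0.44 ± 0.10 log2 units (edgeR adjusted p = 0.0141). That call was lost without 16.5-week female 15 (adjusted p = 0.0553) and without 16.5-week male 19 (adjusted p = 0.0687), with the change at -0.44 in both. Ftl1 had 381 ± 52.9 CPM in females and 341 ± 38.2 CPM in males (SD, n = 4 each), overlapped and did not pass (0.18 ± 0.11, edgeR adjusted p = 0.447). The heavy to light ratio per kilobase was 1.07 to 1.32 in female and 1.57 to 2.02 in male kidneys, without overlap. Of the other members, Slc11a2 stood at -0.17 ± 0.10 and Hfe at 0.15 ± 0.10 log2 units, neither of which passed. Hamp, at its few counts, was not called either.

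**Figure D2:**
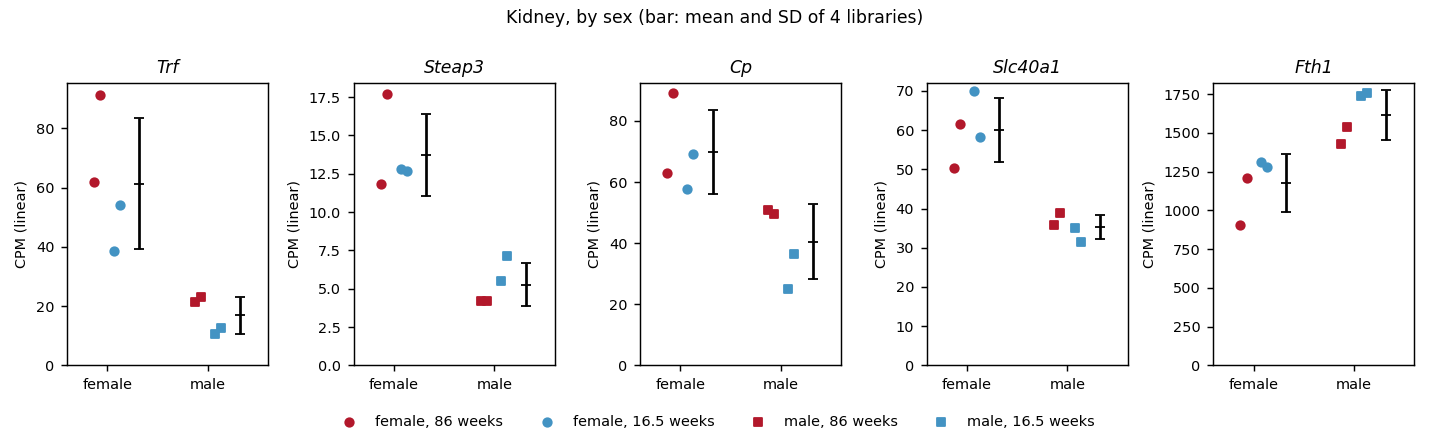
Kidney CPM (vertical, linear from 0) of the 5 genes that passed the test of sex, females left and males right. Each point is 1 mouse, red 86 weeks and blue 16.5 weeks, and the bar is the mean ± SD of 4 libraries. Trf, Steap3, Cp and Slc40a1 lie higher in females and Fth1 lower, with no overlap between the sexes.

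Several cell type markers differed between the same female and male kidneys. Of 7 erythroid markers tested, 5 were higher in females, and their summed level was 389 to 680 CPM in females and 302 to 398 CPM in males. The erythroid list shares Alas2 with the heme synthesis genes described further on. Podocyte markers were higher in 3 of 4, summed at 166 to 263 CPM in females and 135 to 196 CPM in males. Loop and distal tubule markers, a list whose sum also reached 2228 to 4947 CPM in skeletal muscle, were higher in 3 of 6, at 4028 to 5107 CPM in females and 3084 to 3891 CPM in males. Proximal tubule markers split, 2 of 8 higher and 3 lower, summed at 9117 to 14290 CPM in females and 12178 to 15310 CPM in males. The 2 higher were Lrp2 and Cubn, which also count among the scavenging genes described further on. The macrophage list likewise shares Cd163 with those genes. Hepatocyte markers split, 2 of 8 higher and 2 lower, summed at 26.1 to 36.5 CPM in females and 35.6 to 67.1 CPM in males. Schwann cell markers were higher in 1 of 7, at 31.1 to 34 CPM in females and 25.9 to 29.1 CPM in males, without overlap. Collecting duct markers had 2 of 6 higher and 1 lower, at 145 to 205 CPM in females and 119 to 168 CPM in males, and endothelial markers 1 of 6 higher, at 191 to 262 CPM in females and 183 to 243 CPM in males. Genes listed as atrial markers had 1 of 7 higher and 1 lower, and their sum was 105 to 147 CPM in females and 156 to 175 CPM in males, without overlap. None of 10 macrophage and none of 6 adipocyte markers passed by edgeR, though all 10 and all 6 had positive estimates for females, with sums of 105 to 224 and 21.1 to 238 CPM in females and 90.3 to 118 and 21.7 to 34.4 CPM in males, and none of the markers in these lists was at 0 in all kidneys. The part of any of these in the change of Trf, Steap3, Cp, Slc40a1 or Fth1 was not tested. Trf, Steap3, Cp and Slc40a1 passed whichever of the 8 mice was left out. That includes 16.5-week female 15 and 86-week female 12, whose adipocyte and macrophage sums stood out. Leaving out 1 mouse cannot test marker differences that the other mice share.

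Outside the kidney no member passed the test of sex. In left ventricle edgeR called 0 of 10 (1 at an unadjusted p under 0.05), beside 0.871% of all genes, and DESeq2 called 0. In skeletal muscle edgeR called 0 of 10 (3 at an unadjusted p under 0.05), beside 1.36% of all genes, and DESeq2 called 0. Trf had 23.9 ± 3.33 CPM in female left ventricle and 27.3 ± 6.91 CPM in male left ventricle, with a change of -0.17 ± 0.14 log2 units. In skeletal muscle it had 51.1 ± 33.5 CPM in females and 35.2 ± 27.0 CPM in males, with a change of 0.26 ± 0.50. Steap3 had 18.5 ± 1.36 CPM in female left ventricle and 17.8 ± 2.14 CPM in male left ventricle (0.09 ± 0.12), and 20.4 ± 1.74 CPM in female muscle and 16 ± 3.33 CPM in male muscle (0.31 ± 0.13). All 4 female muscles were above the males for Steap3, as one sex was above the other for 6.49% of genes with a mean of at least 1 CPM in muscle. Hfe in left ventricle had 16 ± 1.75 CPM in females and 19.3 ± 1.92 CPM in males (-0.25 ± 0.11), with no overlap, as for 2.1% of such genes in that tissue. Fth1 in muscle was 579 ± 34.8 CPM in females and 711 ± 95.6 CPM in males (-0.34 ± 0.11, edgeR adjusted p = 0.248), the same sign as in kidney.

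**Figure D3:**
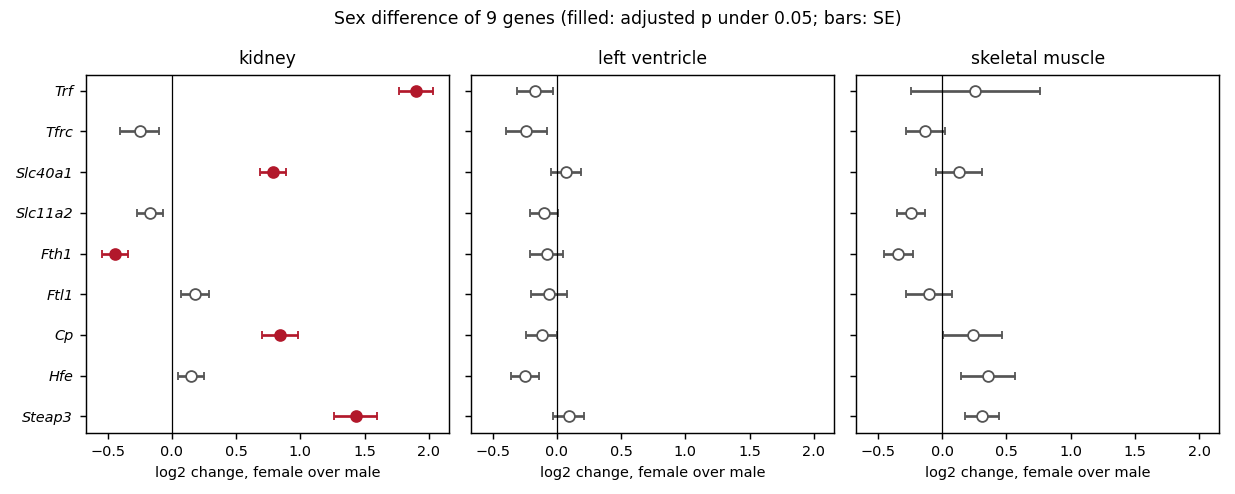
Female over male log2 change (horizontal) of 9 genes in kidney, left ventricle and skeletal muscle, with SE bars. Hamp is left out because of its low counts. Filled points passed at an edgeR adjusted p under 0.05. All 5 filled points are in kidney, from -0.44 for Fth1 to 1.90 for Trf.

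Whether the sex change itself differed between the 3 tissues was asked in a single fit of all 24 libraries, a test that was added after the data were seen. Of the members 2 passed, beside 1.90% of all genes, and DESeq2 called 1. Steap3 had an edgeR adjusted p of 0.000644 and passed in all 8 fits that left out 1 mouse. Slc40a1 had an adjusted p of 0.0424, passed in 2 of those 8 fits (edgeR adjusted p 0.0356 to 0.345), and did not pass with the mouse as a block (0.0566), with RLE size factors (0.247), with DESeq2 (0.0593) or without the filter on low counts (0.0697). Trf, with the widest spread in muscle, did not pass (edgeR adjusted p = 0.0684, and 0.0179 to 0.335 without 1 mouse, where it passed without 86-week male 17 or 16.5-week male 20). It passed with a filter of 1 CPM in 4 libraries (0.0394). Neither Cp (0.22) nor Hfe (0.236) nor Fth1 passed by edgeR, so for those 3 genes a difference between tissues in the sex change was not shown, and for Trf it depended on the setting.

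Iron genes outside the set were taken from 8 lists of 70 genes, all of which passed the low-count filter. In kidney 21 of the 70 passed the test of sex, 11 higher and 10 lower in females, beside 7.58% of all genes. That share is over 44572 genes tested, while 18862 genes averaged at least 1 CPM in kidney. A share among genes at the levels of the 70 is not given here, so the size of the excess is not known. In the comparison of the sex change between tissues 5 of the 70 passed (Cpox, Flvcr2, Tmprss6, Steap2 and Id1), beside 1.90% of all genes. The list of reduction and uptake genes, which also holds the ferroxidase gene Heph, had 4 of 8 higher and 0 lower. Its median was 0.63 log2 units, against 0.02 over all genes. The 4 higher genes were Steap1 and Steap2, relatives of Steap3, the ferrireductase gene Cybrd1, and Heph. Steap2 had 115 ± 15.2 CPM in female kidneys and 70.0 ± 9.01 CPM in male kidneys (0.74 ± 0.11), and Heph, a ferroxidase related to ceruloplasmin, had 14.8 ± 2.12 CPM in females and 9.52 ± 1.76 CPM in males (0.67 ± 0.11). Among 13 genes that regulate hepcidin, 2 were higher. Tmprss6, the protease that cuts the hepcidin co-receptor hemojuvelin, had 8.29 ± 3.39 CPM in females and 1.49 ± 0.185 CPM in males (2.47 ± 0.20, edgeR adjusted p = 1.91e-06).

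Of 14 mitochondrial iron and iron-sulfur genes 5 were lower in female kidneys, 0 were higher and the other 9 did not pass, with a median of -0.28 log2 units. Fdx1, a ferredoxin, had 23.5 ± 1.74 CPM in females and 34.8 ± 3.44 CPM in males (-0.54 ± 0.08), and Lyrm4, a partner of the cysteine desulfurase Nfs1, had 6.58 ± 1.53 CPM in females and 10.4 ± 1.14 CPM in males (-0.66 ± 0.13). Heme synthesis had 1 of 9 higher and 2 lower. Cpox, the coproporphyrinogen oxidase, had 37.5 ± 4.91 CPM in females and 98.1 ± 12.4 CPM in males (-1.36 ± 0.08, edgeR adjusted p = 9.14e-08). Heme breakdown and transport had 2 of 9 higher, both Flvcr genes, and 1 lower. Flvcr2 had 41.5 ± 6.55 CPM in females and 14.2 ± 2.12 CPM in males (1.57 ± 0.12). The iron regulatory proteins that bind the hairpins printed above stood at -0.31 ± 0.10 (Aco1, not called) and -0.33 ± 0.09 (Ireb2, called). Scavenging genes, not all of them receptors, had 2 of 10 higher and 1 lower. The higher ones were the receptor genes Lrp2 and Cubn, which take filtered proteins into the proximal tubule, and the lower one was their partner Amn. Chaperones and ferritin turnover had 0 of 4 called either way. Without 16.5-week female 15 the count of 21 became 12. In left ventricle and skeletal muscle edgeR called 0 of 70 by sex (4 and 10 at an unadjusted p under 0.05), and DESeq2 called 0 and 1. The smallest p-values there belonged to Lrp2 (-1.56 ± 0.40, but -0.68 without 16.5-week male 20 and -1.84 without 16.5-week male 19, where it passed) and the iron-sulfur scaffold gene Iscu (-0.36 ± 0.11) in left ventricle, and to Id1 (0.97 ± 0.23) and Bmp2 (0.59 ± 0.16) in muscle.

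**Figure D4:**
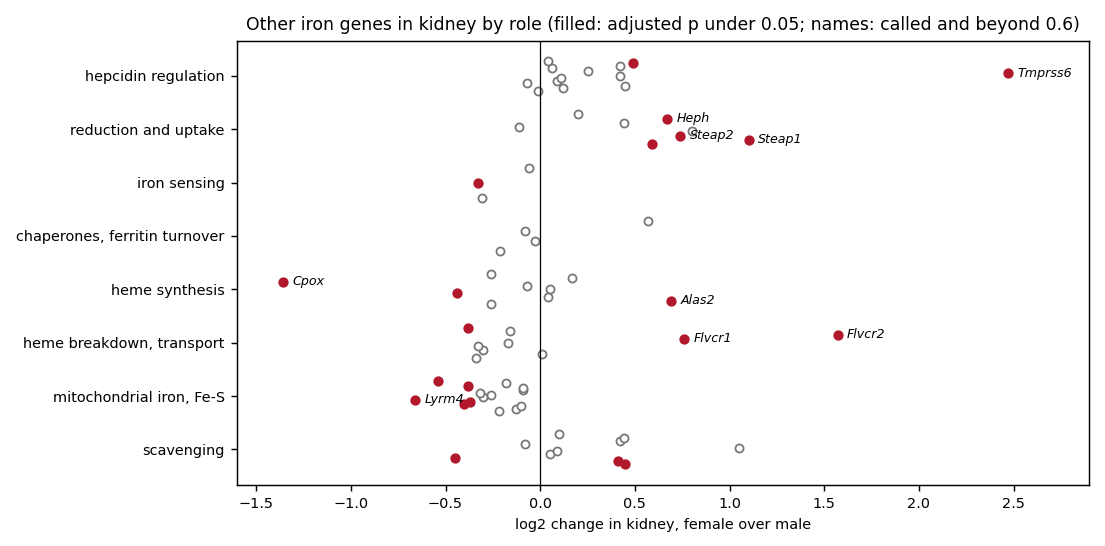
Female over male log2 change in kidney (horizontal) of the 70 other iron genes, 1 row per role. Each point is a gene, and filled points passed at an edgeR adjusted p under 0.05. Reduction and uptake genes lie mostly right of 0, mitochondrial genes left of it, and Tmprss6 (2.47) and Cpox (-1.36) are the extremes. The reduction and uptake row includes the ferroxidase gene Heph.

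Age is a contrast that the members were chosen for, so its values are a description. The calls of members by age given below are likewise no test, and nothing is read from them. In kidney Trf was 0.86 ± 0.13 log2 units higher at 86 weeks, and 0.78 to 0.99 when each mouse was left out. The values per mouse given above put both 86-week females above both 16.5-week females and both 86-week males above both 16.5-week males, while the ages overlapped when the sexes were pooled, as they did for each of the 10 members in kidney (4.37% of genes averaging at least 1 CPM did not overlap). Cp stood at 63.2 ± 18.3 CPM in 86-week and 47.1 ± 20.1 CPM in 16.5-week kidneys (0.52 ± 0.14), and Fth1 at 1272 ± 280 CPM in 86-week and 1523 ± 261 CPM in 16.5-week kidneys (-0.23 ± 0.10). The other members lay between -0.14 and 0.13. In the same kidneys all 10 macrophage and 6 of 7 erythroid markers tested had positive changes with age, with 0 called. Collecting duct markers had 1 of 6 positive and 1 called lower. Their sum was 119 to 159 CPM at 86 weeks and 164 to 205 CPM at 16.5 weeks, without overlap. Proximal tubule markers had 2 of 8 positive and loop and distal tubule markers 1 of 6, with 0 called. The part of any of these in the changes of Trf, Cp or Fth1 was not tested. By edgeR 1 member (Trf) passed, beside 0.112% of all genes, and its call was lost in 5 of the 8 fits without 1 mouse (16.5-week female 14 or male 19, 86-week female 12, male 14 or male 17), with no term for sex and with no low-count filter.

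In left ventricle Cp was the member that separated the ages. It had 106 and 89.1 CPM in 86-week females and 132 and 98.8 CPM in 86-week males, against 81.8 and 67.6 CPM in 16.5-week females and 82.0 and 74.1 CPM in 16.5-week males. The lowest 86-week mouse was above the highest 16.5-week mouse, as for 2.5% of genes averaging at least 1 CPM, and the difference was 0.47 ± 0.12 log2 units. Summed atrial markers in the same left ventricles were 229 and 114 CPM in 86-week females and 216 and 28.8 CPM in 86-week males, against 46.6 and 39.2 CPM in 16.5-week females and 176 and 39.8 CPM in 16.5-week males. Summed macrophage markers were 178 to 268 CPM at 86 weeks and 174 to 210 CPM at 16.5 weeks. All 7 atrial markers, 9 of 10 macrophage markers and 7 of 7 erythroid markers tested had positive changes with age, and edgeR called 0 of each list. Their part in the change of Cp was not tested, and without 86-week male 14, the mouse with the highest Cp, that change was 0.37. Ftl1 had 56.7 ± 11.8 CPM at 86 weeks and 46.0 ± 7.20 CPM at 16.5 weeks (0.31 ± 0.14), with overlap. By edgeR 0 of 10 members passed (2 at an unadjusted p under 0.05), beside 0.0741% of all genes, and by DESeq2 0.

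In skeletal muscle the largest estimate belonged to Trf and the spread was wide. It had 71.7 and 87.3 CPM in 86-week females and 61.2 and 12.5 CPM in 86-week males, against 20.6 and 24.8 CPM in 16.5-week females and 11.2 and 55.7 CPM in 16.5-week males. No member separated the ages in muscle, as 2.8% of genes averaging at least 1 CPM did. Male 17 among the old and male 20 among the young broke the order, and the change of 0.99 ± 0.50 log2 units ran from 0.73 without 16.5-week female 14 to 1.45 ± 0.42 without 86-week male 17 and 1.78 ± 0.36 without 16.5-week male 20. The summed adipocyte markers were 445, 357, 174 and 56.3 CPM in 86-week mice 11, 12, 14 and 17, against 74.5, 82.5, 55.3 and 252 CPM in 16.5-week mice 14, 15, 19 and 20. They were high in the same libraries as Trf, and all 6 adipocyte markers had positive changes with age, none of which passed. Positive changes were also estimated for all 10 macrophage, 7 erythroid, 7 atrial and 5 slow muscle markers, with 0 called. Endothelial and loop and distal tubule markers had 0 of 6 positive each, and fast muscle markers 1 of 8. Summed macrophage markers were 66.5 to 177 CPM at 86 weeks and 46.6 to 123 CPM at 16.5 weeks. The part of any of these in the Trf levels was not tested. Tfrc had 92.5 ± 20.2 CPM at 86 weeks and 134 ± 25.2 CPM at 16.5 weeks (-0.51 ± 0.15), with overlap, and Cp had 15.1 ± 4.12 CPM at 86 weeks and 10.6 ± 3.74 CPM at 16.5 weeks (0.51 ± 0.23, with 0.34 without 16.5-week male 19 and 0.87 ± 0.15 without 16.5-week male 20). By edgeR 0 of 10 members passed (2 at an unadjusted p under 0.05), beside 0.0183% of all genes, and by DESeq2 0.

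Cp was thus estimated at 0.52, 0.47 and 0.51 log2 units higher at 86 weeks in kidney, left ventricle and skeletal muscle of the same mice. The edgeR F-test for a difference in age change between tissues called 0 of 10 members (0 at an unadjusted p under 0.05), beside 0.0511% of all genes, and DESeq2 called 0. Of the 70 other iron genes edgeR called 0 by age in kidney, left ventricle and skeletal muscle (14, 4 and 10 at an unadjusted p under 0.05), as did DESeq2. The smallest p-values in kidney belonged to Cisd1, an iron-sulfur protein of the outer mitochondrial membrane (-0.37 ± 0.10), and Ireb2 (-0.31 ± 0.09). In left ventricle they belonged to Smad7 (0.30 ± 0.11) and Smad6 (0.33 ± 0.13), inhibitors of the signal that drives hepcidin. In muscle they belonged to Alas2, the erythroid enzyme of heme synthesis (0.68 ± 0.19), and Bmp2, a ligand of that signal (0.55 ± 0.16). For a difference in age change between tissues edgeR called 0 of the 70 (5 at an unadjusted p under 0.05) and DESeq2 0, with the smallest adjusted p for the heme exporter gene Flvcr1 (edgeR, 0.377) and the next for the metal carrier gene Slc39a8 (edgeR, 0.949).

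**Figure D5:**
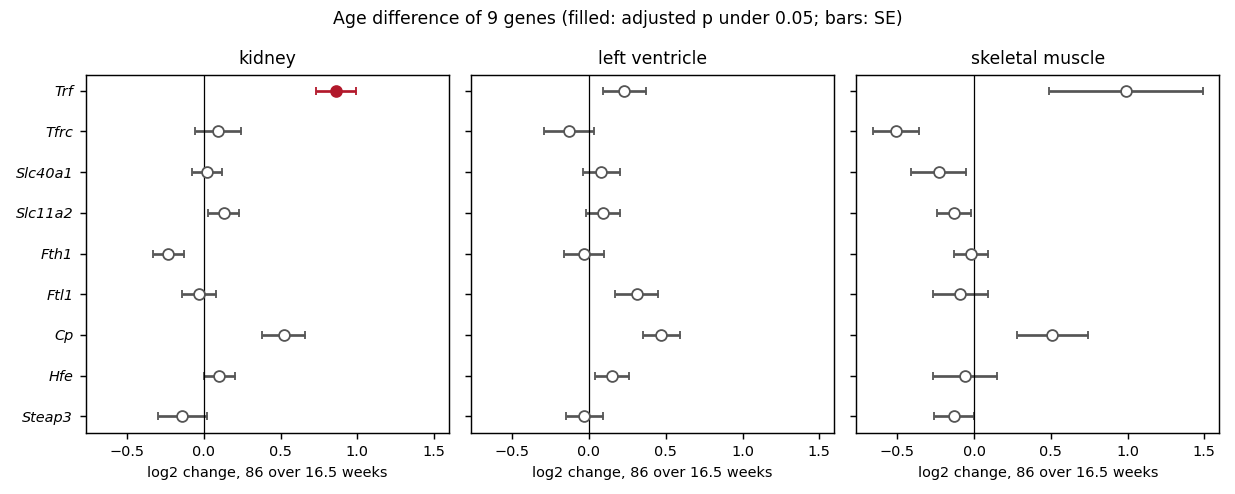
Log2 change at 86 over 16.5 weeks (horizontal) of 9 genes in kidney, left ventricle and skeletal muscle, with SE bars. Hamp is left out because of its low counts. The filled point, Trf in kidney at 0.86, passed at an edgeR adjusted p under 0.05, and Cp lies near 0.5 in each tissue. The genes were chosen for this contrast, so the filled point is a description.

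Of the 70 other iron genes, 48 differed between kidney and left ventricle (37 higher, 11 lower), beside 33.3% of all genes. Between kidney and skeletal muscle 59 differed (49 higher, 10 lower), beside 42.7%, and between left ventricle and skeletal muscle 36 differed (28 higher, 8 lower), beside 26.3%. Of the genes of heme breakdown and transport 7 of 9 were higher in kidney than in left ventricle and 8 of 9 higher than in skeletal muscle, and 0 were lower in both. The 3 genes of iron sensing were higher in kidney in both comparisons, and Aco1 was 3.01 ± 0.11 log2 units above left ventricle and 3.67 ± 0.11 above skeletal muscle. The receptor genes Lrp2 and Cubn and their partner Amn were the most kidney-biased, at 9.61 ± 0.45, 6.51 ± 0.15 and 4.91 ± 0.12 log2 units over left ventricle. Hjv, the hepcidin co-receptor hemojuvelin, ran the other way, with 0.601 ± 0.0908 CPM in kidney, 80.4 ± 11.2 CPM in left ventricle and 284 ± 34.4 CPM in skeletal muscle (SD, n = 8). Cd163, which takes up hemoglobin bound to haptoglobin, was also lower in kidney, by -3.58 ± 0.21 against left ventricle and -3.39 ± 0.21 against skeletal muscle, and so was the reductase gene Steap4 (-3.17 ± 0.18 and -2.95 ± 0.18). Between left ventricle and skeletal muscle the largest differences were those of Id1 (2.48 ± 0.12), Alas2 (1.94 ± 0.15) and the metal carrier gene Slc39a14 (1.83 ± 0.10) upward, and of the haptoglobin gene Hp (-2.27 ± 0.37), Hjv (-1.82 ± 0.10) and Flvcr1 (-1.56 ± 0.12) downward.

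The genes whose pattern over the 24 libraries came closest to a member were found by the root mean square difference of mean-centred log2 CPM among 15660 genes. Ftl1 was followed by Arhgef28 (0.23) and by Aco1 (0.26), which encodes 1 of the 2 iron regulatory proteins, beside a spread of 1.56 of Ftl1 around its own mean. Fth1 was followed by Ppp1r16a (0.11) and Scyl2 (0.13, spread 0.59), Slc11a2 by Ap1g1 and Nek4 (0.15 each, spread 0.75) and Slc40a1 by Osbpl5 and Snx25 (0.24 each, spread 0.77). Steap3 was followed by Tspan7 (0.33) and Casz1 (0.34, spread 0.70), Cp by Prelid2 (0.32) and Acsf2 (0.35, spread 1.30), Tfrc by Ltv1 and Armc8 (0.25 each, spread 0.47), and Hfe by Lmna and Klc1 (0.21 each, spread 0.42). Trf had no close neighbour, the nearest being Cd1d1 (0.49) and Mmd (0.58) beside a spread of 0.90. The tissue differences dominate such a measure, and it was given as a description of shared pattern only.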

How the data were processed

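The submitters' processing notes name STAR 2.7.6a, StringTie 2.1.1 and the build GRCm38.p6, without the step each was used for. The deposited table holds whole-number gene counts of 55401 genes in 24 libraries. The annotation release, the strand setting and the way counts were produced are not given in the sources used here. Identifiers (54349 matched) were joined to GENCODE M21 for positions and exon lengths.

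Counts were tested with edgeR 4.0.16 (R 4.3.3): quasi-likelihood F-tests after TMM normalisation (factors 0.731 to 1.511) and filterByExpr, with two-sided p-values adjusted by Benjamini-Hochberg over all genes kept and a threshold of 0.05. Age and sex were fitted together in the 8 libraries of a tissue. Tissue, age by tissue and sex by tissue came from 1 fit of the 24 libraries by tissue, age and sex. The mice are separate animals, but 2 mice per age and sex limit the precision. CPM use the TMM library sizes, levels carry SD and log2 changes carry SE.

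Alternatives were RLE size factors, DESeq2 1.42.0, a filter of 1 CPM in 4 libraries, no filter on low counts, no term for sex, ferritin summed with its pseudogenes, leaving out each mouse, and the mouse as a replicate block. Mouse names recur across tissues and so pair the libraries, although the deviations of libraries of a mouse correlated at only -0.11 to 0.24. The fits were run on simulated counts of independent libraries, for age within a tissue and for kidney over left ventricle only. The sex contrast was not simulated, and no outcome is given here. Members, lists and tests were chosen with earlier results of these data known. From the other iron genes, up to 4 per direction with the smallest p past the threshold were named for age and sex (the 2 with the smallest p where none passed) and the 3 largest per direction for tissue. A gene that this rule names for sex is not reported here. Other genes named beside a count were chosen after their values were seen, and Hps3, Gm5475 and Hamp2 for their sequence. Nearest genes were the 2 closest with a mean of at least 1 CPM (prior count 2), predicted models left out.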

Additional observations from a re-analysis of the deposited data

Results flagged for a closer look

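In muscle, 3 members had a mouse far from the other 3 of its age. Slc11a2 reached 25.1 CPM in 86-week male 14, against 18.0 to 19.1 CPM in the other 3 mice of that age. Ftl1 was at 18.4 CPM in 86-week male 17, against 32.3 to 34.4 CPM in the others, in the library with the lowest fast muscle sum. Hfe was at 10 CPM in 16.5-week female 14, against 12.9 to 13.4 CPM. Of 60 groups of 4 looked at in this way, chance marks about 5%.

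The female over male change differed between tissues for Steap3 (edgeR adjusted p = 0.000644) and, among the other iron genes, for Cpox (2.78e-06), Flvcr2 (0.00015), Tmprss6 (0.000258), Steap2 (0.00147) and Id1 (0.0153). For Slc40a1 the adjusted p was 0.0424, but the call was lost in 6 of 8 fits without 1 mouse, with the mouse as a block, with RLE size factors, with DESeq2 and without the low-count filter. For Cpox the levels were 37.5 ± 4.91 CPM in female kidney and 98.1 ± 12.4 CPM in male kidney, but 36.7 ± 3.64 CPM in female left ventricle and 38.9 ± 1.88 CPM in male left ventricle (SD, n = 4 each). For Flvcr2 they were 41.5 ± 6.55 CPM in female kidney and 14.2 ± 2.12 CPM in male kidney, but 4.97 ± 0.666 CPM in female left ventricle and 4.77 ± 0.403 CPM in male left ventricle. Id1, a target of the signal that drives hepcidin, had its largest sex estimate in muscle (0.97 ± 0.23).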

How the results depend on the processing

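In kidney the sex count of 5 members was 5 under RLE size factors, DESeq2, no low-count filter and a filter of 1 CPM in 4 libraries, and 4 or 5 without 1 mouse. The members' sex changes in kidney moved little, for Trf from 1.88 to 1.91 and for Fth1 from -0.46 to -0.44 log2 units. The member called by age in kidney was lost (0 called) with no term for sex and with no filter, and the count was 0 or 1 without 1 mouse. The member count for the sex change between tissues was 1 rather than 2 with DESeq2, RLE size factors and no filter, 1 with the mouse as a replicate block, and 1 to 3 without 1 mouse. The replicate block moved no other count past 1.5 times.

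Counts of all genes depended more on the settings. By age they were 50 in kidney (DESeq2 238, no term for sex 0, no filter 1, without 1 mouse 19 to 69), 33 in left ventricle (DESeq2 70, no filter 18, without 1 mouse 24 to 117) and 8 in skeletal muscle (DESeq2 90, no term for sex 1, no filter 0, without 1 mouse 1 to 43). The age change between tissues gave 24 (1 CPM filter 55, DESeq2 92, no filter 7, without 1 mouse 15 to 48). By sex they were 388 in left ventricle (1 CPM filter 18, no filter 725, without 1 mouse 161 to 374) and 594 in skeletal muscle (1 CPM filter 297, no filter 918, without 1 mouse 345 to 718). The sex change between tissues gave 893 (1 CPM filter 1763, without 1 mouse 553 to 999).

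Of the other iron genes, 5 passed the sex change between tissues (1 CPM filter 13). By sex, without 1 mouse, 12 to 24 passed in kidney, 0 or 1 in left ventricle (1 with RLE size factors) and 0 to 3 in skeletal muscle (1 each with DESeq2 and RLE size factors). By age in skeletal muscle it was 0 or 1. The causes were not tested.

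Sex changes that were not called also changed sign without single mice: Ftl1 ran from -0.21 to 0.03 in left ventricle and -0.31 to 0.02 in skeletal muscle, Slc40a1 from -0.02 to 0.14 and -0.01 to 0.29 in the same tissues, Steap3 from -0.01 to 0.15 in left ventricle, Trf from -0.20 to 1.04 in skeletal muscle, and Hamp from -0.79 to 0.27 in kidney, -0.89 to 0.09 in left ventricle and -0.06 to 0.32 in skeletal muscle. Hamp had 0 to 26 counts per library, which allow no fold change. Whether depth limits the calls of the other members was not tested.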
